A study of Mus musculus with 6 samples.

Results

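The genes described here are the secretin receptor Sctr and 9 further genes through which cholangiocytes, the epithelial cells of the bile ducts, raise or lower cAMP or release calcium. The set was defined by gene symbol and holds 10 of the 52550 genes listed: the receptors Sctr, Vipr1, Gpbar1, Sstr2 and P2ry2, the adenylyl cyclases Adcy5, Adcy6 and Adcy9, and the inositol trisphosphate (IP3) receptors Itpr2 and Itpr3. All 10 were listed, and all 10 passed the filter on low values.

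RNA was sequenced from livers of CD-1 mouse embryos of the genotype Sox9-GFP, for which no treatment is named, in 3 libraries labelled embryonic day 16 (E16) and 3 labelled embryonic day 18 (E18), called replicates A, B and C of each stage. The study's methods place each collection later within the named day, and the labels' stage names are kept here. Each library came from a pool of 15 livers, so no value belongs to a single embryo. Cells carrying lineage markers of blood were depleted on a magnetic column and GFP-positive cells were then sorted. The cells measured are thus those sorted as positive for the Sox9 reporter, whatever their type, and the purity of the sort was not tested. The labels do not say which embryos or days the replicates of a stage came from, and the p-values measure the spread between these pools.

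Secretin is a gut hormone that acts on its receptor on the basolateral side of cholangiocytes. The receptor couples to Gs, adenylyl cyclases make cAMP, and protein kinase A then drives chloride and bicarbonate secretion into bile, while somatostatin acts through Gi against this rise. ATP in bile acts on P2Y receptors at the apical membrane, phospholipase C makes IP3, and IP3 receptors release calcium from the endoplasmic reticulum, a path that also serves bicarbonate secretion. Bile ducts form around the portal veins late in gestation, from SOX9-positive hepatoblasts.

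Promoters were available for 8 of the 10 genes in the RefSeq promoter table (GRCm38.p6). They were read because CREB, the transcription factor at the end of the cAMP path, binds the palindrome TGACGTCA and its shorter form TGACG. The 250 bases before each start site were searched on both strands, and the shorter form lies within the palindrome. Of 32851 promoters in the table, 1.55% held the palindrome and 17.8% held the shorter form. The palindrome was found in Sstr2 alone of the 8, starting 58 bases before the start site, and the shorter form was found outside a palindrome in Vipr1, 13 bases before the start site, and in Adcy9, 24 bases before it. The stretches around these matches follow, 5′ to 3′ on the gene's strand, with the matched letters in capitals (CGTCA is the shorter form read on the other strand).
Sstr2, chr11:113619239-113619306, forward strand: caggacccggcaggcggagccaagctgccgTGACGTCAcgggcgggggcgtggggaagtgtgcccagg
Vipr1, chr9:121642673-121642715, forward strand: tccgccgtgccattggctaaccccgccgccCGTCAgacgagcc
Adcy9, chr16:4420499-4420552, reverse strand: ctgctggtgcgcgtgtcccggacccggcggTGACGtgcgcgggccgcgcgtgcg
Gpbar1, Adcy5, P2ry2, Itpr2 and Itpr3 had neither motif in this window. A match is a description of letters and not a binding site.

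Values are TPM (transcripts per 1000000), a level scaled by gene length and library total, so levels of different genes can be set side by side. The stages were compared with limma on log2(TPM + 1). The 22452 genes whose mean reached 1 TPM were tested, and a gene was called at a Benjamini-Hochberg adjusted p under 0.05. This scale understates the change of low genes. Of all genes tested, 31.2% were called, 26.0% higher and 5.22% lower at E18. The median log2 fold change of all genes was 0.42, so a change of this size is the general shift of these libraries. After median-of-ratios scaling, which removes the shift (median 0.01), 16.9% were called. Of the 10 genes, 4 were called: Sctr, Itpr2 and Itpr3 higher and Adcy9 lower at E18, a share close to that of all genes. Under median-of-ratios scaling 2 were called, Sctr higher and Adcy9 lower. For those 4 genes the libraries of one stage lay apart from those of the other, as they did for 53.3% of all genes tested.

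**Figure D1:**
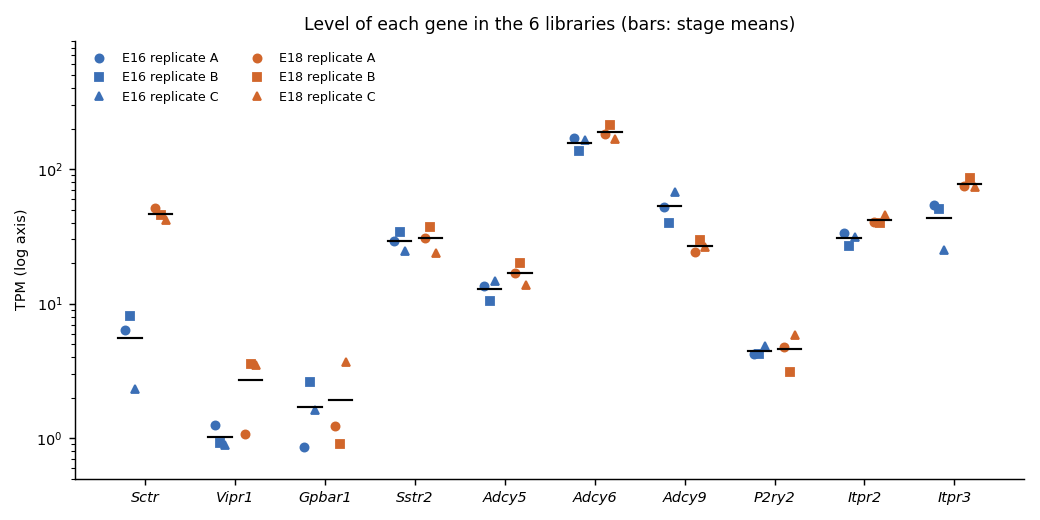
Level of each gene in TPM (log axis) in the 3 E16 libraries (blue) and the 3 E18 libraries (orange), with replicate letters as symbols and stage means as black bars. Sctr stands at 2.31 to 8.09 TPM at E16 and at 41.6 to 51.7 TPM at E18, whereas Adcy6 leads at both stages.

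The libraries also differed in their levels of cell type markers. Hepatoblast markers summed to more than cholangiocyte markers in every library. Single genes made up much of these sums, which therefore do not give the amount of each cell type. Alb gave 117854 of the 179600 TPM of hepatoblast markers in E16 replicate A. Spp1 gave 12121 of the 14485 TPM of cholangiocyte markers in E18 replicate B. The summed level of 12 cholangiocyte markers (Krt7, Krt19, Epcam, Sox9, Spp1 and others) was 861 to 2766 TPM at E16, lowest in replicate C, and 8457 to 14485 TPM at E18, and 9 of the 12 were called higher. Their mean log2 level was lowest in E16 replicate C too. Markers of hepatoblasts had log2 fold changes of -2.90 to -0.46, and 7 of 12 were called lower. Their sums were 179600 to 228298 TPM at E16 and 41713 to 103374 TPM at E18. Markers of megakaryocytes, the platelet-forming cells, fell for 9 of 9, with sums of 3342 to 9657 TPM at E16 and 96.6 to 771 TPM at E18. Pancreatic acinar markers had log2 fold changes of -4.77 to -1.25, and 3 of the 6 tested were called lower. Their sum was 2469 TPM in E16 replicate A against 15.4 to 230.2 TPM elsewhere. Endothelial (103 to 202 TPM), leukocyte (74.9 to 127 TPM) and erythroid (81.7 to 387 TPM) sums overlapped between stages, with 1, 2 and 0 markers called higher and 0, 0 and 1 called lower. Mesenchymal sums were 115 to 265 TPM at E16 and 255 to 722 TPM at E18, with 2 of 9 called higher. In bulk RNA, fewer cells of a type and less RNA per cell cannot be told apart.

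Sctr was the gene of the set that changed most. Its place is chromosome 1, 120006894 to 120063536, forward (GRCm38, GENCODE vM21, as for all genes here; ENSMUSG00000026387.15). Its level was 6.38, 8.09 and 2.31 TPM at E16 (replicates A, B and C in this order here and below) and 51.7, 45.7 and 41.6 TPM at E18. Every E18 library was thus far above every E16 library, and the lowest library, E16 replicate C, was also the lowest for the cholangiocyte markers. The stage means were 5.59 ± 2.97 and 46.3 ± 5.09 TPM (SD, n = 3 each), a ratio of 8.29. On the log2 scale the change was 2.96 ± 0.36 (SE), with a limma adjusted p of 0.00822. The value rested on 110, 127 and 37 recovered reads at E16 and on 712, 470 and 340 at E18. For the 37 reads of E16 replicate C the exact 95% counting interval was 1.62 to 3.18 TPM, well below the next library. At E16, Sctr stood above 51.4% of protein-coding genes, and at E18 above 83.4%.

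The rise of Sctr kept its call in each of the 15 alternative settings, with log2 fold changes from 2.53 to 3.26 and adjusted p from 0.00272 to 0.0372. Under median-of-ratios scaling it was 2.55, with a limma adjusted p of 0.0125. Without both E16 replicate C and E18 replicate B, the libraries that stood apart in their cholangiocyte or megakaryocyte markers, Sctr was still called. Because the cholangiocyte markers rose too, Sctr was also set against their mean within each library, a difference that scaling between libraries does not touch. The log2 level of Sctr was below that mean by -3.21, -2.91 and -3.01 at E16 and by -1.58, -1.75 and -1.75 at E18. All E18 libraries lay nearer to the marker mean than all E16 libraries, by 1.34 on average (exact permutation test, p = 0.1, the smallest that 3 against 3 libraries allow). The dip of E16 replicate C was no longer seen on this scale. The log2 fold changes of the 12 markers ran from 0.69 to 3.19, so not every marker rose less than Sctr.

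**Figure D2:**
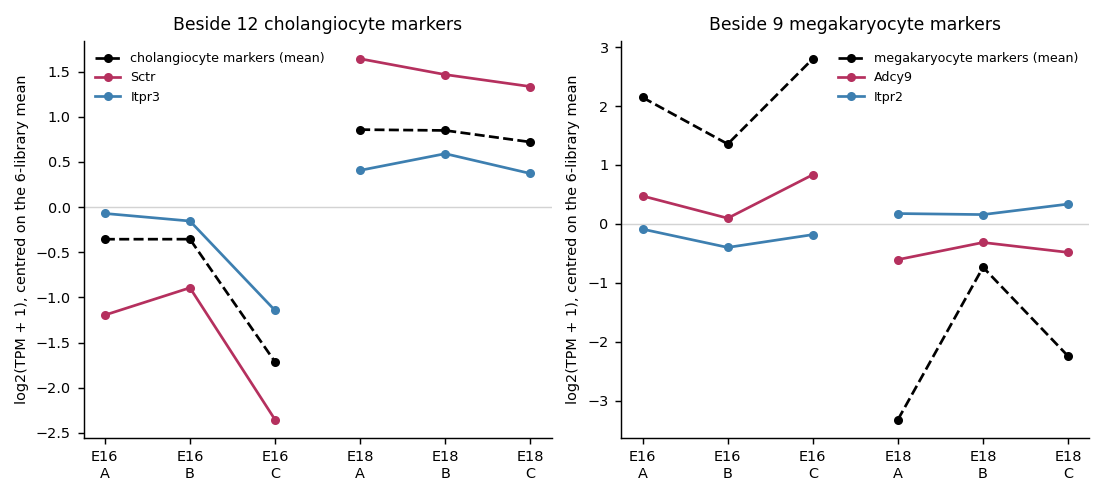
Left, log2(TPM + 1) of Sctr and Itpr3 beside the mean of 12 cholangiocyte markers, and right, of Adcy9 and Itpr2 beside the mean of 9 megakaryocyte markers, each centred on its mean over the 6 libraries named on the x axis. Sctr rises more than the mean of the cholangiocyte markers and Itpr3 less, and the order of the libraries for Adcy9 is that of the megakaryocyte markers.

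The other receptors that raise cAMP were scarce at both stages. Vipr1, a receptor for vasoactive intestinal peptide (chromosome 9, 121642716 to 121672954, forward; ENSMUSG00000032528.5), had 1.25, 0.928 and 0.886 TPM at E16 and 1.08, 3.54 and 3.52 TPM at E18. Replicate A of E18 lay within the E16 range and replicates B and C of E18 above it. The log2 fold change was 0.80 ± 0.38 (SE; 95% interval -0.09 to 1.68), with a limma adjusted p of 0.138. Gpbar1, the cell surface receptor for bile acids also called TGR5 (chromosome 1, 74278550 to 74279624, forward; ENSMUSG00000064272.3), had 0.868, 2.62 and 1.63 TPM at E16 and 1.22, 0.910 and 3.66 TPM at E18. The stages overlapped over most of their range (log2 fold change 0.05, 95% interval -0.98 to 1.08, limma adjusted p = 0.935). The values rested on only 5 to 22 reads, and the 5 reads of E18 replicate B gave an exact 95% counting interval of 0.295 to 2.12 TPM. No difference in Gpbar1 was detectable at this depth.

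Sctr therefore took a growing part of the transcripts of these 3 Gs-coupled receptors. Its share of their summed TPM was 75.1%, 69.5% and 47.8% at E16 and 95.7%, 91.1% and 85.3% at E18. The stages did not overlap, and the mean share was 26.6 percentage points higher at E18 (64.1 ± 14.4% against 90.7 ± 5.24%, SD, n = 3 each, exact permutation p = 0.1). The difference was 18.4 points without E16 replicate C.

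The receptor that opposes secretin was not called. Sstr2, a Gi-coupled somatostatin receptor (chromosome 11, 113619342 to 113626028, forward; ENSMUSG00000047904.6), had 29.3, 34.0 and 24.5 TPM at E16 and 30.6, 37.3 and 23.8 TPM at E18. The highest and the lowest of the 6 libraries were both from E18, and within each stage replicate B was highest and replicate C lowest. Its log2 fold change was 0.05 ± 0.20 (SE; 95% interval -0.42 to 0.52), with a limma adjusted p of 0.855. Relative to the general shift this was -0.36, and under median-of-ratios scaling it was -0.40 (adjusted p = 0.109), so the sign depends on the scaling. Sstr2 exceeded Sctr at E16 in every library and was below it at E18 in every library.

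Among the adenylyl cyclases, Adcy6 was by far the most abundant. Adcy6, a cyclase inhibited by calcium (chromosome 15, 98589973 to 98610076, reverse; ENSMUSG00000022994.8), had 169.8, 137 and 163 TPM at E16 and 182, 213 and 168 TPM at E18, above 97.5% and 97.9% of protein-coding genes. One E16 library, replicate A, lay just above the lowest E18 library. The log2 fold change was 0.26 ± 0.14 (SE), with a limma adjusted p of 0.182, and under median-of-ratios scaling it was -0.20 (adjusted p = 0.329). The antisense gene Gm29331 covers 8.92% of its exons, and whether the counting used strand is not given in the sources used here.

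Adcy5, the closest relative of Adcy6 (chromosome 16, 35154877 to 35305738, forward; ENSMUSG00000022840.8), had 13.5, 10.5 and 14.8 TPM at E16 and 17.0, 20.2 and 13.7 TPM at E18. Replicates A and B of E18 lay above the E16 range and replicate C within it. The change was 0.36 ± 0.20 (log2, SE), with a limma adjusted p of 0.191, and it was -0.07 under median-of-ratios scaling (adjusted p = 0.826).

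Adcy9, a widely expressed cyclase that responds little to forskolin, fell. Its place is chromosome 16, 4287529 to 4420498, reverse (ENSMUSG00000005580.11). Its level was 52.2, 39.9 and 67.3 TPM at E16 and 24.2, 29.8 and 26.4 TPM at E18. Every E18 library was below every E16 library, and the ratio of the means was 0.504 (53.1 ± 13.7 against 26.8 ± 2.83 TPM, SD, n = 3 each). This was a log2 change of -0.94 ± 0.20 (SE), with a limma adjusted p of 0.0183, and under median-of-ratios scaling it was -1.39 (adjusted p = 0.0173). The call was lost only without E18 replicate A, at -0.87 and an adjusted p of 0.0654. The order of the 6 libraries for Adcy9 was the same as for the summed megakaryocyte markers, which were 5801, 3342 and 9657 TPM at E16 and 96.6, 771 and 226 TPM at E18. Of the 1172 genes called lower, 25.1% had that order. The part of megakaryocyte RNA in the fall of Adcy9 was not tested.

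Over the 9 membrane-bound cyclases (Adcy1 to Adcy9), the summed level was 257 ± 30.9 TPM at E16 and 296 ± 35.6 TPM at E18 (SD, n = 3 each, exact permutation p = 0.3). Adcy6 made up 61.6%, 61.6% and 59.5% of it at E16 and 65.3%, 63.2% and 61.6% at E18, and the stages overlapped at 61.6% (exact permutation p = 0.3). Adcy9 made up 18.9%, 18.0% and 24.5% at E16 and 8.66%, 8.84% and 9.70% at E18. Its share was lower in every E18 library (exact permutation p = 0.1). Adcy2, a calcium-insensitive cyclase outside the set, had a mean share of 3.14% at E16 and 9.81% at E18, without overlap (exact permutation p = 0.1).

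**Figure D3:**
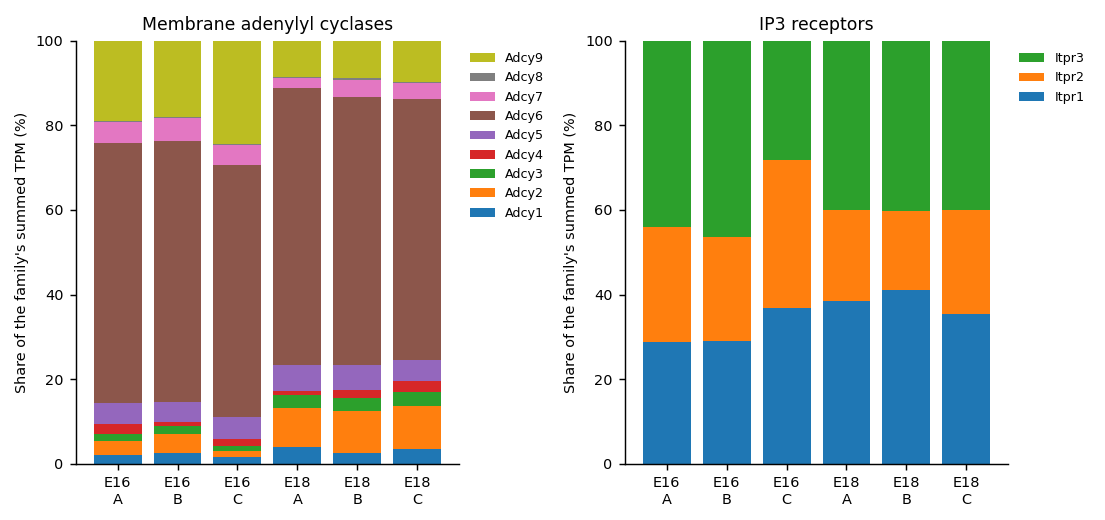
Share (%) of each gene in the summed TPM of the membrane-bound adenylyl cyclases (left) and of the IP3 receptors (right) in each of the 6 libraries. Adcy6 holds about the same share throughout, Adcy9 shrinks from 18.0% or more to 9.70% or less, and Itpr3 has 28.1% to 46.4% at E16, lowest in replicate C, and 39.9% to 40.1% at E18.

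On the calcium side, P2ry2, the Gq-coupled receptor for ATP and UTP (chromosome 7, 100996568 to 101012866, reverse; ENSMUSG00000032860.5), was low at both stages. It had 4.25, 4.24 and 4.82 TPM at E16 and 4.80, 3.09 and 5.83 TPM at E18. The E18 libraries spread on both sides of the E16 range. Its log2 fold change was 0.01 ± 0.25 (SE; 95% interval -0.59 to 0.60), with a limma adjusted p of 0.987, and its sign changed with the scaling (-0.37 under median-of-ratios).

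Both IP3 receptors of the set were called higher at E18, but neither call was firm. Itpr3, the isoform that gathers under the apical membrane of cholangiocytes (chromosome 17, 27057304 to 27122223, forward; ENSMUSG00000042644.8), had 53.8, 50.7 and 25.0 TPM at E16 and 75.3, 85.7 and 73.4 TPM at E18. The stages did not overlap, and E16 replicate C was the lowest library by a wide margin, as it was for the cholangiocyte markers. The log2 fold change was 0.91 ± 0.28 (SE), with a limma adjusted p of 0.0462. It was 0.46 under median-of-ratios scaling (adjusted p = 0.197). The call was lost there, under quantile normalization (adjusted p = 0.116) and with no filter on low values (0.0861), and also without E16 replicate B (adjusted p = 0.0548), E18 replicate A (0.103), E18 replicate B (0.118) or E18 replicate C (0.0783). Relative to the mean of the cholangiocyte markers, Itpr3 was at -0.31, -0.40 and -0.03 (log2) at E16 and at -1.05, -0.86 and -0.95 at E18, a fall without overlap (difference -0.70, exact permutation p = 0.1). The marker mean itself rose, from 6.09, 6.09 and 4.73 (log2) at E16 to 7.30, 7.29 and 7.17 at E18. That rise exceeds the general shift of 0.42, so a gene with that shift alone falls on this scale. The share of all genes that fell on it was not counted, so the falls are not read as a trait of the set. Every gene of the set except Sctr fell, Itpr3 least and Adcy9 most (-2.55, exact permutation p = 0.1). Of the genes that fell, only Vipr1 and Gpbar1 had overlapping stages. An antisense gene, Itpr3os, covers 2.58% of the exons of Itpr3.

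Itpr2, known as the main IP3 receptor of hepatocytes (chromosome 6, 146108299 to 146502223, reverse; ENSMUSG00000030287.15), had 33.5, 26.8 and 31.3 TPM at E16 and 40.4, 39.9 and 45.3 TPM at E18. All E18 libraries were above all E16 libraries, by a narrow margin. The change was 0.45 ± 0.13 (log2, SE), with a limma adjusted p of 0.0401. This is 0.03 above the median of all genes, and under median-of-ratios scaling it was -0.01 (adjusted p = 0.980). The call was lost on leaving out any one of the 6 libraries (adjusted p from 0.0604 to 0.117).

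Itpr1, the third isoform and not in the set, rose from 35.1, 31.7 and 32.7 TPM at E16 to 72.5, 87.8 and 65.2 TPM at E18. Its log2 fold change was 1.15, with a limma adjusted p of 0.00815, and it was also called under median-of-ratios scaling, at 0.69. The 3 isoforms together had 107 ± 16.8 TPM at E16 and 195 ± 15.9 TPM at E18 (SD, n = 3 each), without overlap (exact permutation p = 0.1). Itpr3 made up 44.0%, 46.4% and 28.1% of this sum at E16 and 40.0%, 40.1% and 39.9% at E18. The mean shares were 39.5 ± 9.94% and 40.0 ± 0.12% (SD, n = 3 each, exact permutation p = 1), and the difference of 0.53 points became -5.17 points without E16 replicate C. Itpr2 made up 29.0% at E16 and 21.6% at E18, and Itpr1 31.5% and 38.4%, with overlapping libraries for both (exact permutation p = 0.2 each).

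**Figure D4:**
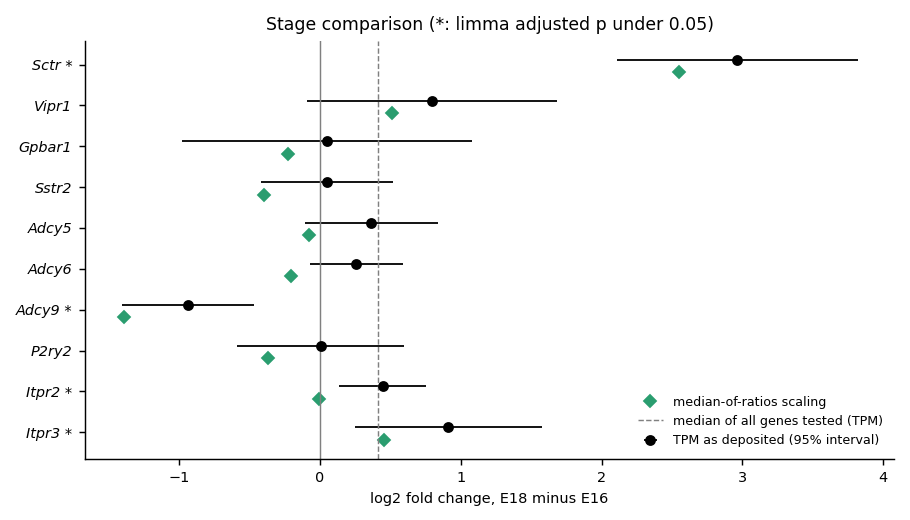
Log2 fold change of each gene, E18 minus E16, with the TPM as deposited (black, 95% interval) and under median-of-ratios scaling (green), and the median of all genes tested as a dashed line at 0.42. Sctr lies right of the dashed line and Adcy9 left of it with their whole intervals, and the interval of each of the other 8 genes holds it.

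The order of the levels changed most through Sctr and Adcy9. At E16 the order by mean TPM was Adcy6, Adcy9, Itpr3, Itpr2, Sstr2, Adcy5, Sctr, P2ry2, Gpbar1 and Vipr1. The libraries of Adcy9, Itpr3, Itpr2 and Sstr2 overlapped with those of the next gene in this run, as did those of Sctr and P2ry2 and those of Gpbar1 and Vipr1. At E18 the order was Adcy6, Itpr3, Sctr, Itpr2, Sstr2, Adcy9, Adcy5, P2ry2, Vipr1 and Gpbar1. Overlapping neighbours were Sctr and Itpr2, Sstr2 and Adcy9, P2ry2 and Vipr1, and Vipr1 and Gpbar1. Sctr moved from rank 7 to rank 3, and Adcy9 from rank 2 to rank 6.

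The genes whose profile over the 6 libraries was nearest to that of Sctr were taken from the 15352 whose mean reached 5 TPM, by the root mean square difference of centred log2(TPM + 1). Ager, the receptor for advanced glycation end products, was nearest, with a difference of 0.08. Its level was 13.5, 18.9 and 6.38 TPM at E16 and 107, 94.4 and 80.4 TPM at E18, which is the order of the libraries for Sctr. Sucnr1, a receptor for succinate, followed at 0.18, and Glis3, a transcription factor, at 0.22. The others were Gm42793, Unc13c, Itgb8, Fmo2 and Gm11348, at 0.20 to 0.25. These 6 libraries share their stages, pools and depth, so the likeness is a description.

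A list of 109 other genes of both pathways served for comparison. Of these 108 were listed and 90 tested, and 25 were called higher and 14 lower at E18, with a median log2 fold change of 0.25 against 0.42 for all genes. The genes called higher were 27.8% of those tested, against 26.0% of all genes, and those called lower 15.6%, against 5.22% of all genes. Under median-of-ratios scaling the counts turned to 14 higher and 23 lower, and those of all genes to 1447 higher and 2348 lower. The fit itself is that of the 10 genes above, and limma adjusted p-values are given throughout.

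Upstream of cAMP, other Gs-coupled receptors went both ways, with 2 of 8 called higher and 2 lower. Vipr2, the second receptor for vasoactive intestinal peptide, had a mean of 4.31 TPM at E16 and 15.6 TPM at E18 (log2 fold change 1.69, adjusted p = 0.0183), and its mean level was above that of Vipr1 at both stages. Gcgr, the glucagon receptor of hepatocytes, fell from 30.2 to 11.1 TPM (-1.44, adjusted p = 0.0194). Of 4 other Gi-coupled receptors tested, 1 was called: Adora1, an adenosine receptor, rose from 21.8 to 65.1 TPM (1.56, adjusted p = 0.00852), although Mybph on the opposite strand covers 20.1% of its exons. Somatostatin receptors other than Sstr2 did not pass the filter on low values. Of 7 G protein alpha subunits, 2 were called higher, among them Gna14, of the Gq family, from 4.71 to 13.1 TPM (1.33, adjusted p = 0.0108). The abundant inhibitory subunits had values near each other at both stages, with Gnai2 at 149 and 150.4 TPM and Gnai3 at 162 and 192 TPM. Under median-of-ratios scaling Gnai2 was called lower (-0.45, adjusted p = 0.0410) and Gnai3 was not called (-0.23, adjusted p = 0.0948).

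Of 5 other adenylyl cyclases tested, 3 were called higher and none lower. Adcy2 rose from 9.39, 9.86 and 4.29 TPM to 25.6, 33.6 and 28.0 TPM (1.83, adjusted p = 0.0112). At E18 it was the second most abundant cyclase by its mean, 29.0 TPM, beside 26.8 TPM for Adcy9. Of 15 genes of protein kinase A, EPAC and CREB, 5 were called higher and 1 lower. Ezr, encoding ezrin, which anchors kinase A at the apical membrane, rose from 54.8 to 125 TPM (1.22, adjusted p = 0.0152). Prkar2b, a regulatory subunit of kinase A, fell from 143 to 27.6 TPM (-2.33, adjusted p = 0.0117), while the main catalytic subunit Prkaca had 99.7 and 88.7 TPM (adjusted p = 0.286). Under median-of-ratios scaling Prkaca was called lower too (-0.63, adjusted p = 0.0144). Of 9 cAMP phosphodiesterases, which break cAMP down, 2 were called higher and 3 lower: Pde4b rose from 4.88 to 16.0 TPM (1.53, adjusted p = 0.00779), and Pde3a fell from 52.9 to 10.5 TPM (-2.19, adjusted p = 0.0133). Pde10a fell from 13.6 to 2.15 TPM (-2.22, adjusted p = 0.0142).

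On the calcium path, 1 of 9 purinergic and ATP-handling genes was called higher and 3 lower. Entpd2, an enzyme that removes extracellular ATP, rose from 3.88 to 16.7 TPM (1.86, adjusted p = 0.00852), and Npdc1 covers 28.8% of its exons. P2rx1, an ATP-gated channel of platelets, fell from 135 to 8.40 TPM (-3.93, adjusted p = 0.00878). Nt5e, an enzyme that makes adenosine from AMP, fell from 13.01 to 4.28 TPM (-1.45, adjusted p = 0.0144). Of 8 other Gq-coupled receptors, 2 were called higher and 3 lower. Chrm3, a muscarinic receptor, rose from 3.85 to 11.1 TPM (1.42, adjusted p = 0.0392, not called under median-of-ratios scaling), and Adra1b, an adrenergic receptor of hepatocytes, fell from 23.1 to 3.58 TPM (-2.46, adjusted p = 0.00852). Ednrb, an endothelin receptor, rose from 10.9 to 29.97 TPM (1.31, adjusted p = 0.0444), with overlapping libraries and no call under median-of-ratios scaling.

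Of 8 phospholipase C genes, 4 were called higher and 1 lower. Plcb4 had 20.5, 21.6 and 19.4 TPM at E16 and 99.4, 105 and 81.6 TPM at E18 (2.15, adjusted p = 0.00315), the largest rise of this group and one without overlap. Plcg2, a form used in blood cells, fell from 72.1 to 10.3 TPM (-2.75, adjusted p = 0.0122). Of 15 genes of calcium stores and entry, 3 were called higher and 1 lower. Trpv4, a calcium channel of cholangiocyte cilia, had 1.83, 1.23 and 0.584 TPM at E16 and 10.01, 11.5 and 10.9 TPM at E18 (2.45, adjusted p = 0.00743). Atp2a3, a calcium pump abundant in platelets, fell from 266 to 23.2 TPM (-3.59, adjusted p = 0.010004), while the general pump Atp2a2 had 196 and 208 TPM (adjusted p = 0.607). Of the 14 genes of the list called lower, 8 had the library order of the megakaryocyte markers: Prkar2b, Pde3a, Pde10a, P2rx1, P2ry1, F2r, Plcg2 and Atp2a3. These were 57.1%, against 25.1% of all genes called lower and 1.51% of all genes tested. P2ry1, an ADP receptor of platelets, fell from 46.2 to 8.68 TPM (-2.28, adjusted p = 0.0139), and the antisense gene Gm37035 covers 23.1% of its exons. Whether megakaryocyte RNA had a part in these falls was not tested.

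**Figure D5:**
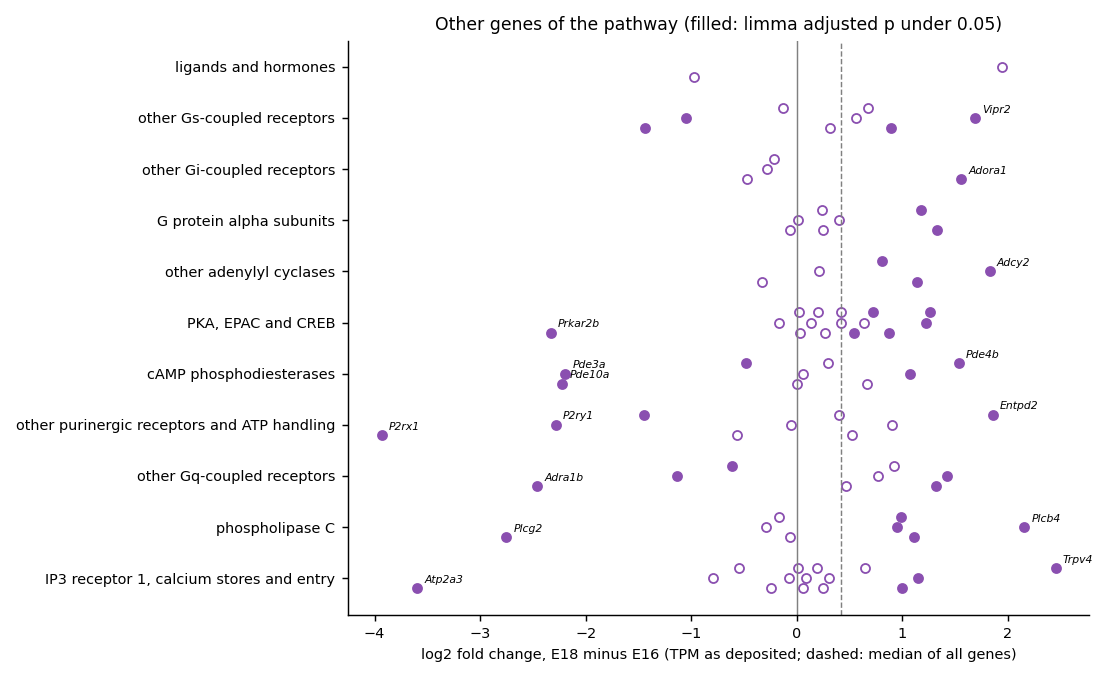
Log2 fold change, E18 minus E16, of the 90 tested genes of the pathway list by role, with called genes filled and the median of all genes tested as a dashed line at 0.42. Plcb4 (2.15) and Trpv4 (2.45) lie farthest right, and P2rx1 (-3.93) and Atp2a3 (-3.59) farthest left.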

How the data were processed

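Total RNA of GFP-positive liver cells was sequenced (TruSeq total stranded RNA-seq kit) in 3 libraries per stage. The authors trimmed the reads, aligned them with HISAT2 2.1.0 to GRCm38, obtained gene counts with HTSeq 0.5.4p3 on GENCODE annotation and turned the counts into TPM. The deposited table gives TPM of 52550 genes, with a sum of 1000000 per library. Whether the counting used strand is not given in the sources used here. Symbols and positions were taken from GENCODE vM21 (GRCm38), which matched 52403 of the identifiers. The 10 genes, the pathway list and the marker lists were chosen with earlier results of these data known.

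Read numbers were rebuilt by multiplying TPM with exon length and dividing by what 1 read is worth. All 180057 nonzero values of the 49035 genes with the same identifier version came out whole within 0.01. For 2229 further genes, among them Adcy5, Adcy6 and Itpr3, the length itself was solved from the values. Recovered totals were 26402589 to 29799992 reads at E16 and 14976029 to 25901556 at E18, so low values are less precise at E18. Counting intervals cover counting error only.

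Stages were compared in R 4.3.3 with limma 3.58.1 (lmFit, eBayes with trend) on log2(TPM + 1), for a mean of at least 1 TPM, two-sided, adjusted by Benjamini-Hochberg across every gene tested. Shares and marker differences were tested by two-sided exact permutation in Python 3.11.15, where 3 against 3 libraries cannot go below p = 0.1. The steps were tested on simulated data. In the limma simulation every gene had the same dispersion and there was no general shift, so it does not measure how reliable the calls here are. Alternatives were a pseudocount of 0.1, median-of-ratios scaling, no filter, quantile normalization, a minimum mean of 5 TPM, protein-coding genes rescaled without haemoglobins, voom on recovered reads, a block of replicate letters and each library left out in turn. Added after seeing the data were the fit without both E16 replicate C and E18 replicate B, and the levels of the genes relative to the cholangiocyte markers. Same-lettered libraries of the stages hold different embryos, and their deviations correlated at -0.04, 0.08 and 0.14, so letters were not taken as pairs. The lowest chi-square per degree of freedom between libraries of a stage was 17.1, so none was a copy. All 10 genes were named. The 20 called pathway genes with the largest absolute log2 fold change were named. Others could be named as examples from a stage mean of at least 20 TPM, and genes like Sctr by the 8 smallest differences. Sct, Sst and Gnas were named after their values were seen. Of the markers, examples only are named, and some single values are not reported here.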

Additional observations from a re-analysis of the deposited data

How the results depend on the processing

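Sctr kept its direction and its call in all 15 alternatives. The number of the 10 genes called was 4 and became 2 with no filter on low values, under median-of-ratios scaling and under quantile normalization, and 1 to 3 on leaving out 1 library, with 1 to 2 higher and 0 to 1 lower; under those 3 settings 1 was higher. Without E18 replicate A, Sctr alone was called. Pathway genes called were 22 to 33 on leaving out 1 library, against 39. Genes called in all were 7000, and became 4282 with no filter, 3795 under median-of-ratios scaling, 3796 under quantile normalization, 6202 with voom on recovered reads, 2851 without both E16 replicate C and E18 replicate B, and 1472 (without E18 replicate A) to 5686 on leaving out 1 library. Of the calls, 83.3% were higher at E18 with the TPM as deposited, 38.1% under median-of-ratios scaling and 50.5% under quantile normalization. With the replicate letters as a replicate block, 4 of the 10 genes, 34 pathway genes and 7314 genes in all were called.

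Directions that turned belonged to genes with small changes. Under median-of-ratios scaling the log2 fold changes were -0.23 for Gpbar1, -0.40 for Sstr2, -0.075 for Adcy5, -0.20 for Adcy6, -0.37 for P2ry2 and -0.0070 for Itpr2. Under quantile normalization they were -0.32 for Gpbar1, -0.30 for Sstr2, -0.035 for Adcy5 and -0.43 for P2ry2, and with voom on recovered reads -0.13 for Gpbar1, -0.075 for Sstr2 and -0.16 for P2ry2. P2ry2 was at -0.00096 with a pseudocount of 0.1, and Sstr2 at -0.22 without both E16 replicate C and E18 replicate B. On leaving out 1 library, Gpbar1 ranged from -0.34 to 0.30, Sstr2 from -0.10 to 0.21 and P2ry2 from -0.16 to 0.21. The difference in the Itpr3 share ranged from -5.17 to 3.98 points on leaving out 1 library and was -0.34 points on recovered reads. The scaling changes follow from the shift of 0.42 that median-of-ratios removes; the cause of the others was not tested. Depth limits Gpbar1 most, with 5 to 22 reads per library.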

Other observations

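The hormones that act on these receptors were read too, and are named here after their values were seen. Sct, encoding secretin itself, had 33.4, 20.5 and 0.389 TPM at E16 and 2.49, 14.3 and 1.53 TPM at E18 (log2 fold change -0.98, limma adjusted p = 0.560). Over the 15 alternatives this change ran from -3.19 to -0.09, with limma adjusted p from 0.0208 to 0.961. It was called in 1 of them, the fit without both E16 replicate C and E18 replicate B, which gave -3.19. Sst, encoding somatostatin, had 7.79, 12.6 and 0.209 TPM at E16 and 15.9, 34.3 and 12.7 TPM at E18 (log2 fold change 1.94, limma adjusted p = 0.125). Both were lowest in E16 replicate C, the library with the lowest cholangiocyte marker levels.

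Gnas, encoding the Gs alpha subunit through which the secretin receptor acts, was listed at only 3.67, 3.08 and 3.70 TPM at E16 and 4.68, 4.34 and 5.83 TPM at E18, against 137 to 209.5 TPM for Gnai2 and Gnai3. Gm20721 covers 13.1% of its exons and Nespas 8.83%, both on the opposite strand. Whether reads in these stretches were left out of the counting was not tested, so the level of Gnas is uncertain.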
